A study of Rattus norvegicus with 4 samples.

Results

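The motile cilium genes described here are the rat genes whose symbols start with Tekt, Spag, Spef, Rsph, Dnah, Dnai, Cfap or Drc, together with Foxj1. They were picked by their symbols, but with earlier results of these data known. The RefSeq gene table held 101 such symbols, 52 of them had a probe that could be named on the array, and 45 were measured, out of 9291 named genes measured in all. A gene counted as measured when the scanner software put a probe well above background on 3 or more arrays for T3, or on 3 or more for saline, and its value is that of its brightest such probe.

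RNA was extracted from hypothalamic tissue (bregma -2.12 to -4.52) taken from 8 rats, all male and of the Sprague Dawley strain. All rats drank methimazole (MMI, 0.025%), which blocks the synthesis of thyroid hormone, for 22 days, so that both groups were hypothyroid. On day 21, 4 of them received an injection of T3, the active hormone, at 25 µg per 100 g, and the other 4 received saline; they were killed 24 hours later, at 10 weeks of age. Each of 4 Agilent arrays carried a T3 rat in one dye and a saline rat in the other, and the dyes were swapped between arrays: T3 carried Cy5 on arrays 1 and 3, and Cy3 on the other two. No group of untreated rats with normal thyroid function was analysed here, and the labels do not say which rats shared a cage or litter, so p-values measure the spread between these pairs of rats alone.

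Motile cilia are beating cell projections built around an axoneme of outer doublet microtubules and a central pair. Dynein arms slide the doublets against each other, while radial spokes, the nexin-dynein regulatory complex and the central apparatus control that sliding. In the brain, tufts of motile cilia cover the ependymal cells that line the ventricles, including much of the wall of the third ventricle beside the hypothalamus, and they move cerebrospinal fluid. Foxj1 and the RFX factors are the transcription factors known to switch on axoneme genes in such cells. Cells of the choroid plexus also carry cilia, and several axoneme genes are expressed outside ependyma.

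Per array, 51.0% to 68.3% of the spots for T3 and 52.4% to 63.6% of those for saline exceeded background. The known T3 target Hr was at 1.18 ± 0.15 on the log2 scale (SD, n = 4 arrays; limma adjusted p = 0.0129), and it was above 0 on all 4 arrays. It did not pass the threshold without array 1, 3 or 4, nor with Agilent processed signals, median centring or the trend and robust setting of eBayes. Klf9 and Dio3, the other 2 of the 3 genes taken as a check of the treatment, had means of 0.90 and 2.49. Both were above 0 on every array, and neither passed the threshold. Of the 21 hypothalamic neuron markers with a named probe, 19 were measured. The ratios carried a dye component: across all kept probes, which are not independent replicates, r was 0.38 between the arrays with T3 in Cy5 and 0.18 between those with T3 in Cy3, and it ran from -0.11 to 0.11 for pairs of opposite orientation. On array 3 the choroid plexus genes Ttr and Sostdc1 were at 3.53 and 2.70, against -0.37 to 0.45 on the other arrays. The summed brightness of the 9 measured choroid plexus markers ran from 10226 to 25962 in the T3 rats and from 10490 to 12214 in the saline rats.

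No motile cilium gene passed the threshold (limma, Benjamini-Hochberg adjusted p under 0.05 over 23141 probes), in either direction. Of all 9291 named genes, 0.0108% passed as lower and 0.151% as higher. The cilium genes nevertheless lay mostly on the lower side: 34 of 45 had a mean log2 T3/saline below 0 (75.6%), against 48.1% of all named genes. On all 4 arrays, 19 of the 45 were below 0 (42.2%, against 8.04% of all named genes with a value on every array), and 2 were above 0 on all 4 (4.44%, against 9.73%). The count of 19 depended on the processing: it was 1 with median centring in place of loess, 14 with Agilent processed signals and 5 in the authors' deposited table. The cause was not tested. For median centring and Agilent processed signals the share of all named genes was not counted, so these falls cannot be read as particular to the cilium genes. At an unadjusted p under 0.05, limma placed 14 on the lower side (31.1%, against 3.92% of all named genes) and 1 on the higher side (2.22%, against 5.35%). The sizes were small. The median of the 45 was -0.12, from -0.42 to 0.20, against 0.0043 over all named genes, and the smallest difference among the 23 probes that passed was 0.625. No test was made on the genes as a set, and in RNA of whole blocks fewer ciliated cells and less RNA per cell cannot be told apart.

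**Figure D1:**
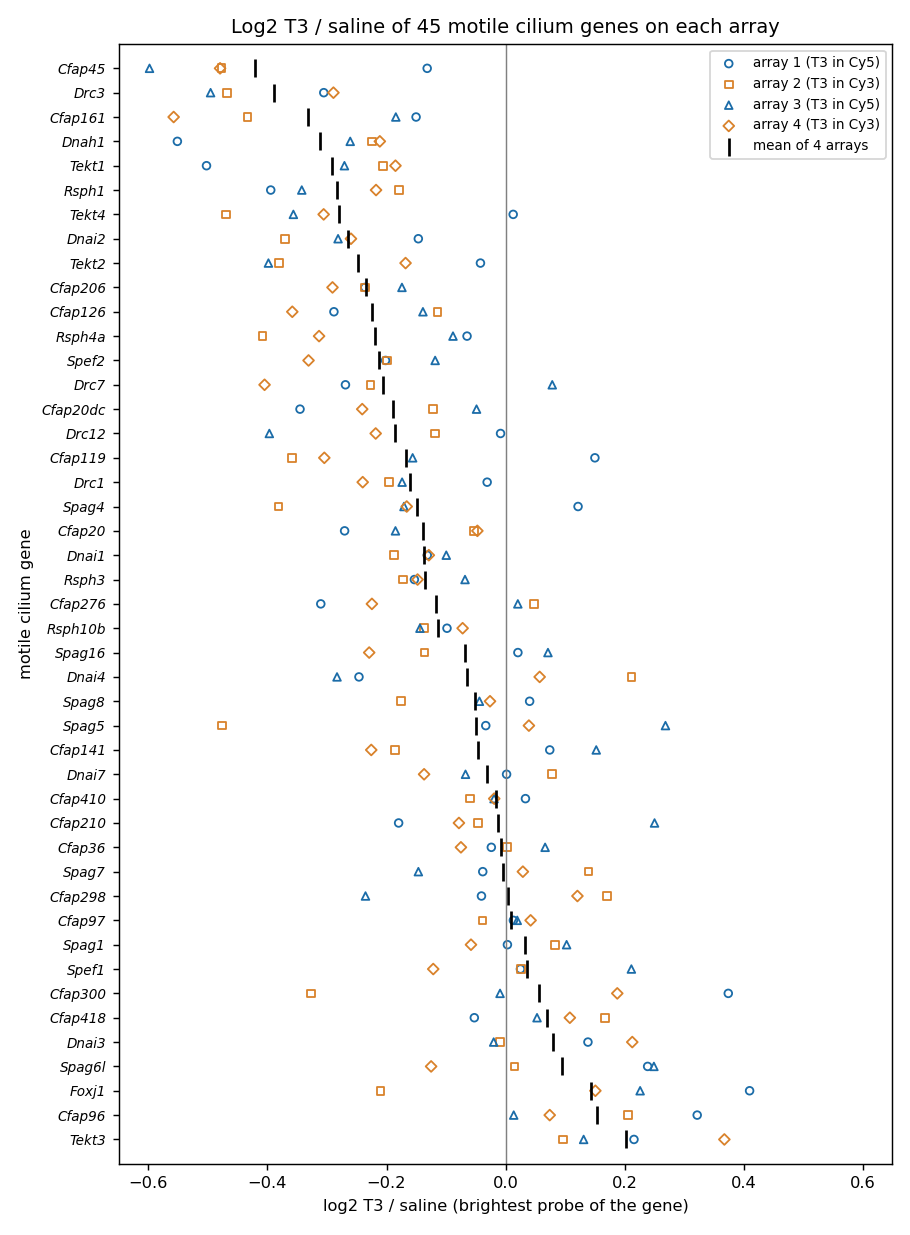
Log2 T3/saline (horizontal axis) of the 45 measured motile cilium genes (rows, ordered by mean), with 1 open symbol for each of the 4 arrays, coloured by the dye of the T3 rat, and a black bar for the mean. Symbols of 19 genes lie wholly to the left of 0, from Cfap45 with a mean of -0.42, and those of Tekt3 and Cfap96 wholly to the right.

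The sequences that bear on these genes as a group are those of their promoters. RefSeq promoters (build GRCr8, 250 bases before to 50 after the start site) were found for 37 of the 45. The X-box, the inverted repeat bound by RFX factors, was searched on both strands with a spacer of 0 to 3 bases. It was present in 7 of the 37 (18.9%), against 1.64% of the 27457 genes in the promoter table. Its core GTTGCC alone, which overlaps many X-boxes, was in 17 of the 37 (45.9%), against 13.1%. The forkhead motif TGTTTAC was in 3 (8.11%, against 4.13%) and TGTTTGT in 2 (5.41%, against 6.88%). A match is a description of the letters, and binding was not measured. The spelling used for the X-box was settled after others had been counted. The 7 genes with a full X-box are shown with up to 20 bases on either side, the X-box in capitals, 5′ to 3′ on the strand named after the coordinates; Cfap298 holds a further X-box that is not shown.
Cfap45, chr13:87521798-87521851, minus strand: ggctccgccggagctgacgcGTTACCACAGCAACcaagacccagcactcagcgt
Dnai2, chr10:100258940-100258992, minus strand: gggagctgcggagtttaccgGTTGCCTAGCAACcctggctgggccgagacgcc
Dnai1, chr5:61525960-61526012, minus strand: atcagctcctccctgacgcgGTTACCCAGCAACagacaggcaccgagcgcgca
Tekt2, chr5:143907728-143907780, plus strand: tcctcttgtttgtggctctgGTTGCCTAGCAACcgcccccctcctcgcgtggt
Spef2, chr2:60421808-60421862, plus strand: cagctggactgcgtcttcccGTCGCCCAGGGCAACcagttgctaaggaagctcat
Cfap20dc, chr15:18661364-18661417, plus strand: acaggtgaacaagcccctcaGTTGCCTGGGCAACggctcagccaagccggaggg
Cfap298, chr11:43677440-43677494, plus strand: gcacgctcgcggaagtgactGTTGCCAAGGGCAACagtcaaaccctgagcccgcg
Dnai2 and Tekt2 carry the same 13 letters, and Dnai1 differs from them inside the capitals.
The promoters of Tekt1 and Cfap161 hold the core but no full match to the X-box as searched here. In each, 1 core is shown in capitals:
Tekt1, chr10:57479135-57479180, minus strand: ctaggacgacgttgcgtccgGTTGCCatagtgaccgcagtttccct
Cfap161, chr1:147177853-147177898, plus strand: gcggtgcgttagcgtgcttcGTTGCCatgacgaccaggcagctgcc

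The Drc genes are named for the nexin-dynein regulatory complex, which links neighbouring doublets. All 4 measured genes with this prefix had a mean below 0, with a median of -0.20. Genes of the complex under other symbols are not counted here. Drc3 had the smallest p of the 45 genes. Its log2 T3/saline was -0.31, -0.47, -0.50 and -0.29 on arrays 1 to 4, a mean of -0.39 ± 0.11 or 0.763-fold (SE 0.074, limma adjusted p = 0.149). All 4 values lay well below 0 and were alike in both dye orientations, with means of -0.40 and -0.38. Drc1 was at -0.03, -0.20, -0.17 and -0.24, and Drc12, the former Ccdc153, at -0.01, -0.12, -0.40 and -0.22. Both were below 0 on every array, with array 1 nearest to 0. Drc12 had a dimmer probe that gave -0.20, close to the -0.19 of its brightest. Drc7 was below 0 on 3 arrays and at 0.08 on array 3.

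Radial spokes carry signals from the central pair to the dynein arms, and all 4 measured genes with the Rsph prefix were below 0 on every array. Rsph1, a protein of the spoke head, was at -0.39, -0.18, -0.34 and -0.22, a mean of -0.28 ± 0.10 or 0.822-fold (limma adjusted p = 0.292). Rsph4a, also of the head, was at -0.06, -0.41, -0.09 and -0.31, nearer to 0 on the arrays with T3 in Cy5. Rsph3, a protein of the stalk, had a mean of -0.14 ± 0.05 and Rsph10b one of -0.11 ± 0.03. The 4 genes kept 1 sign with small means, and their median of -0.18 was similar on each array, from -0.18 to -0.12.

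Of the dynein arm genes, the heavy chain Dnah1 was the sole one of 13 heavy chain symbols with a named probe. It was at -0.55, -0.22, -0.26 and -0.21, a mean of -0.31 ± 0.16 or 0.805-fold (limma adjusted p = 0.312), with array 1 the lowest. Dnai2, an intermediate chain of the outer arm, was at -0.15, -0.37, -0.28 and -0.26, with a mean of -0.26 ± 0.09 (limma adjusted p = 0.323). Its partner Dnai1 lay in a narrow range of -0.19 to -0.10, with a mean of -0.14. These 3 genes were below 0 on every array. The other intermediate chain genes were not: Dnai4 was at -0.25 and -0.28 on arrays 1 and 3 and at 0.21 and 0.06 on arrays 2 and 4, Dnai7 had a mean of -0.03 and Dnai3 one of 0.08.

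Tektins are filament proteins inside the doublet microtubules, and the 4 measured members did not share a sign. Tekt1 was at -0.50, -0.21, -0.27 and -0.18 (mean -0.29 ± 0.15, limma adjusted p = 0.330). Tekt2 was at -0.04, -0.38, -0.40 and -0.17 (mean -0.25 ± 0.17, limma adjusted p = 0.495). Tekt4 was at 0.01, -0.47, -0.36 and -0.31 (mean -0.28 ± 0.21, limma adjusted p = 0.469). Tekt1 and Tekt2 were below 0 on all arrays and Tekt4 on 3, with array 1 at 0. Tekt3 had the highest mean of all 45 genes, with 0.22, 0.10, 0.13 and 0.37 (mean 0.20 ± 0.12, limma adjusted p = 0.545). It was above 0 on every array, and its saline signal was well above background on 3 of 4 arrays.

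Further proteins of the doublets carry the Cfap prefix. Cfap45, which binds inside the doublet lumen, had the lowest mean of the 45 genes, with -0.13, -0.48, -0.60 and -0.48 (mean -0.42 ± 0.20, 0.747-fold, limma adjusted p = 0.205). Its value on array 1 stood nearer to 0 than the others. Cfap161, another inner protein of the doublet, was at -0.15, -0.43, -0.18 and -0.56 (mean -0.33 ± 0.20, limma adjusted p = 0.328), and its dimmer probe gave -0.37. The mean was -0.17 with T3 in Cy5 and -0.50 with T3 in Cy3, a larger gap between orientations than for Drc3. Cfap206, which docks radial spokes, was at -0.24, -0.24, -0.17 and -0.29 (mean -0.23 ± 0.05, limma adjusted p = 0.349), the tightest of the genes named with all values. Its probe was dim, with a T3 signal well above background on 3 of 4 arrays. With Agilent processed signals its mean was -0.54, and it changed sign in the authors' deposited table. Cfap126, which takes part in basal body docking, was at -0.29, -0.11, -0.14 and -0.36 (mean -0.22 ± 0.12, limma adjusted p = 0.473), and its dimmer probe gave -0.31. All 4 of these Cfap genes were below 0 on every array. Over the 17 measured Cfap genes the median was -0.05, with 12 means below 0. At the higher end Cfap96 had a mean of 0.15 and was above 0 on every array, though at 0.01 on array 3.

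Genes of the central apparatus were mixed. Spef2, a protein of the central pair projections, was at -0.20, -0.20, -0.12 and -0.33 (mean -0.21 ± 0.09, limma adjusted p = 0.473), below 0 throughout. Spef1, which bundles the central microtubules, had a mean of 0.04 by its brightest probe, and its other probes gave 0.07 and -0.03. Spag6l was at 0.09 and Spag16 at -0.07. Each of these 3 genes had arrays on both sides of 0. Spag1, Cfap298 and Cfap300, which act in the cell body during assembly of the dynein arms, had means of 0.03, 0.0038 and 0.06.

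Foxj1, the transcription factor of the programme, had a mean above 0. Its log2 T3/saline was 0.41, -0.21, 0.23 and 0.15, a mean of 0.14 ± 0.26 with a 95% interval of -0.10 to 0.39 (limma adjusted p = 0.834). Array 2 was on the opposite side of 0 from the others. The mean was 0.06 without array 1 and 0.26 without array 2. The mean was 0.32 with T3 in Cy5 and -0.03 with T3 in Cy3. Rfx2, an RFX factor, was at -0.0099, and Cep63, a centrosomal protein, at -0.018, the sole measured genes of a list of 20 cilium transcription and centriole genes.

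Some genes that carry these symbols are known for roles outside the moving axoneme, and 9 of 11 on a list of them were measured. They were Spag4, of the nuclear envelope (mean -0.15), Spag5, of the mitotic spindle (-0.05), Cfap410 and Cfap418, known from photoreceptors (-0.02 and 0.07), and Spag7, Cfap20, Cfap36, Cfap97 and Cfap298. The last group includes genes with known axonemal roles too, among them Cfap20, a doublet protein, and Cfap298, named above for dynein arm assembly. The median of the 9 was -0.0075 and 1 of them, Cfap20, was below 0 on all arrays (mean -0.14 ± 0.11, limma adjusted p = 0.718). The median of the other 36 genes was -0.15, with 28 means below 0 and 18 genes below 0 on every array. The difference between these groups was not tested. The measured genes whose means have not been given singly (Cfap20dc, Cfap36, Cfap97, Cfap119, Cfap141, Cfap210, Cfap276, Spag7 and Spag8) ran from -0.19 to 0.0090.

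Of the genes with a named probe, 7 were not measured. The probes of Cfap44, Cfap97d1, Rsph14 and Spag6 were well above background on 0 arrays in either channel, those of Tekt5 and Tektl1 on 1 array in each, and that of Spag11a on 2 arrays in the T3 channel and 1 in the saline channel. Of the measured genes, 43 of 45 met the background rule in both channels. Cfap210 met it through the T3 channel alone and Cfap276 through the saline channel alone. For 49 symbols no probe could be named, among them 12 of the 13 Dnah heavy chains.

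The brightness of each rat's channel, normalized within and between arrays, showed how far the groups overlapped. For Drc3 it was 11.86, 11.77, 11.87 and 11.94 on the log2 scale in the T3 rats of arrays 1 to 4, and 12.17, 12.24, 12.37 and 12.23 in the saline rats. Every T3 rat was below every saline rat. The same held for Cfap161, Tekt2 and Drc12, making 4 of 45 genes (8.89%, against 0.785% of all named genes). For Cfap45 the T3 rats lay between 8.97 and 9.52 and the saline rats between 9.45 and 9.90, so that the groups overlapped slightly. For Tekt1 the ranges were 8.12 to 8.64 and 8.39 to 8.83, with the rats of array 3 the lowest in both groups. For Foxj1 they were 11.93 to 12.03 and 11.58 to 12.24, with the T3 rats inside the range of the saline rats.

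**Figure D2:**
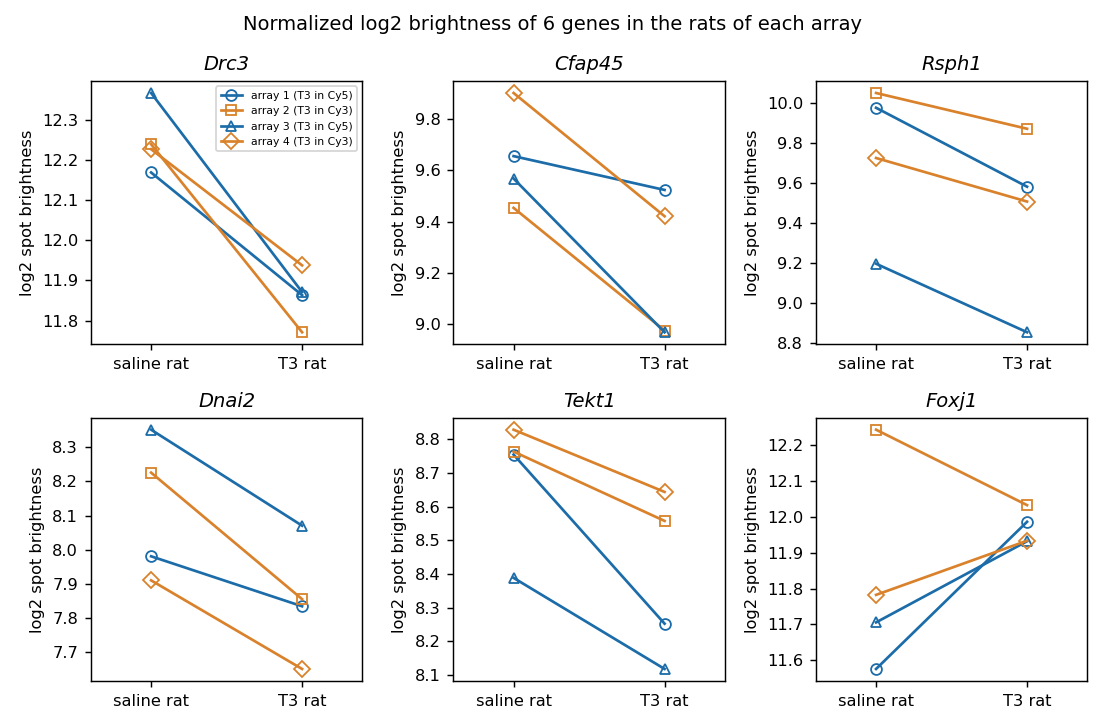
Normalized log2 spot brightness (vertical axes, each gene on its own scale) of 6 motile cilium genes in the saline rat and the T3 rat of each array, joined by a line and coloured by the dye of the T3 rat. Every line of Drc3, Cfap45, Rsph1, Dnai2 and Tekt1 slopes down towards T3, while Foxj1 goes up on 3 arrays and down on array 2.

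By array, 28, 33, 30 and 34 of the 45 genes were below 0 on arrays 1 to 4 (62.2%, 73.3%, 66.7% and 75.6%), against 46.9%, 51.3%, 46% and 51.3% of all named genes. The median of the cilium genes was -0.04, -0.17, -0.09 and -0.15, further from 0 on the arrays with T3 in Cy3. With T3 in Cy5, 64.4% of them had a mean below 0 (45.4% of all named genes), and with T3 in Cy3, 80% (51.5%). In both orientations at once, 26 of 45 were below 0 (57.8%, against 21.1%). The median of the gene means was -0.10 with T3 in Cy5 and -0.16 with T3 in Cy3, on the same side of 0.

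The authors' deposited table of processed ratios from the same arrays matched the scanner files loosely, with r of 0.43, 0.43, 0.19 and 0.28 across probes on arrays 1 to 4. Columns 3 and 4 of the authors' deposited table correlated at -0.51 with each other. In the authors' deposited table the mean was below 0 for 35 of the 45 genes (77.8%, against 46.4% of all named genes), and 5 were below 0 in every column (11.1%, against 5.62%). Its medians for the cilium genes were -0.0095, -0.12, -0.0051 and -0.21, so that the shift stood on the arrays with T3 in Cy3. In the authors' deposited table Drc3 was at -0.46, -0.36, -1.04 and -0.28 and Rsph1 at -0.24, -0.42, -0.63 and -0.03, below 0 throughout. Several other genes lay nearer to 0 there. In the authors' deposited table Cfap45 had a mean of -0.17, with the first column at 0.07, and Dnai2 was at -0.10, Spef2 at -0.09, Cfap161 at -0.16, Tekt2 at -0.14 and Tekt4 at -0.18. Each of these was over 1.5 times nearer to 0 than from the scanner files. In the authors' deposited table Cfap206 had a mean of 0.06, on the other side of 0 from the scanner files.

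**Figure D3:**
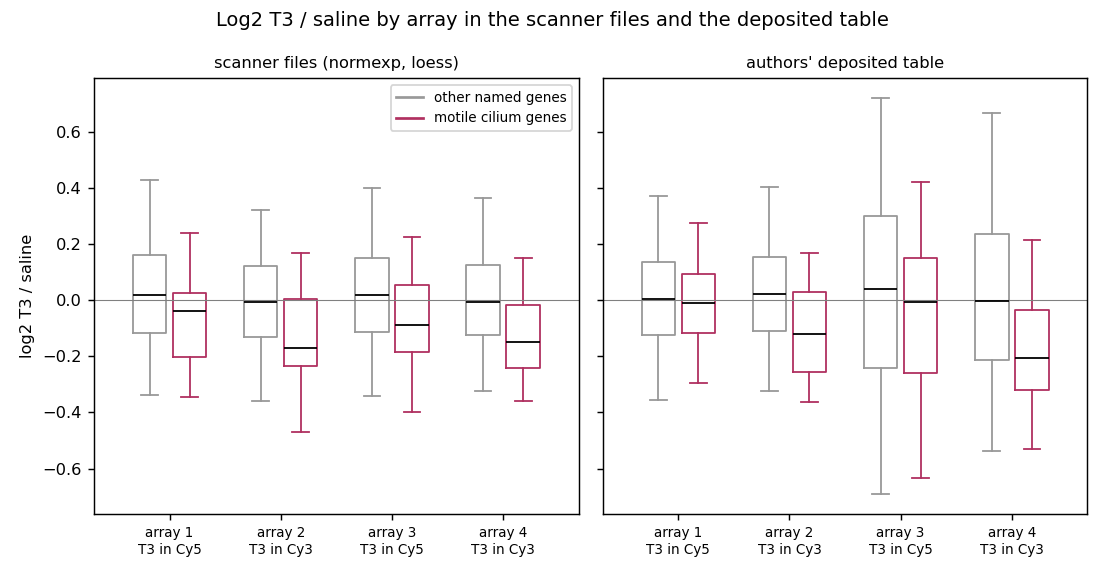
Log2 T3/saline (vertical axis) of the 45 motile cilium genes (red) and all other named genes (grey) on each array, from the scanner files (left) and from the authors' deposited table, taken as log2 (right). Boxes span the middle quartiles with the median as a black line, and whiskers run from the 5th to the 95th percentile. The red medians are -0.04, -0.17, -0.09 and -0.15 on the left and -0.0095, -0.12, -0.0051 and -0.21 on the right.

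Other genes of the cilium were taken from lists chosen for their known roles. Of 37 measured genes of the axoneme and of dynein assembly outside the symbol prefixes, 30 had a mean below 0 (81.1%, against 48.1% of all named genes). Their median was -0.08. On every array 9 were below 0 and 4 above 0, against 8.04% and 9.73% of all named genes with a value on every array. At an unadjusted limma p under 0.05, 5 were lower and 2 higher. No gene of this list passed the threshold. Mns1, a protein inside the doublets, had the smallest p (-0.29, -0.25, -0.19 and -0.53, mean -0.32 ± 0.15, limma adjusted p = 0.288). Of 26 measured genes of intraflagellar transport and the BBSome, which serve motile and primary cilia alike, 19 had a mean below 0 (73.1%). Their median was -0.05, and on every array 5 were below 0 and 4 above 0. At an unadjusted limma p under 0.05, 2 were lower and 1 higher. None of these 26 passed, and Bbs1 had the smallest p (mean -0.21 ± 0.08, limma adjusted p = 0.474). In the authors' deposited table the medians of these 2 lists were -0.07 and -0.02, with 29 of 37 and 18 of 26 means below 0.

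Ependymal markers outside the axoneme did not lie to one side. Of 14 measured, 7 had a mean below 0, the median was -0.02 and none passed the threshold. In the authors' deposited table their median was 0.09, with 4 of 14 means below 0. Expression of these markers in other cell types was not checked, so their median is not a measure of ependymal cells alone. Pltp, a phospholipid transfer protein, was at 0.30, 0.09, 0.19 and 0.27 (mean 0.21 ± 0.09, limma adjusted p = 0.473), and Mia, a secreted protein, at 0.35, 0.22, 0.18 and 0.10 (mean 0.21 ± 0.10, limma adjusted p = 0.494). Both were above 0 on every array. Other markers of the list lay on the lower side: Tmem212, a membrane protein, had a mean of -0.25 ± 0.26 and was below 0 on every array (limma adjusted p = 0.605), and Vim, an intermediate filament protein, was at -0.33 ± 0.35 (limma adjusted p = 0.573). The summed brightness of the markers ran from 150081 to 171005 in the T3 rats and from 139866 to 219627 in the saline rats. It leaves out Anxa5, which had no value on array 4.

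Markers of neighbouring cell types were set beside these values. The 9 measured choroid plexus markers had a median of 0.14, and -0.36 to 0.51 by array, with array 3 the highest. Msx1, a transcription factor, had their smallest p (mean 0.46 ± 0.35, limma adjusted p = 0.330), while Ttr had a mean of 0.92 ± 1.77 that rested on array 3. Without array 3 the median of the cilium genes was -0.12, as with all arrays. The 11 tanycyte markers had a median of 0.09, with the peptide gene Adm at 0.53 ± 0.37 (limma adjusted p = 0.284). The 13 astrocyte markers had a median of -0.11 and the 19 hypothalamic neuron markers one of -0.10, similar to the cilium genes. In the authors' deposited table these medians were -0.0014 and 0.06, with 7 of 13 and 7 of 19 means below 0. The cilium genes were at -0.10 there, with 35 of 45 below 0. The choroid plexus and tanycyte markers were at 0.21 and 0.14 there, with 4 of 9 and 4 of 11 below 0. Of the astrocyte markers the gap junction gene Gja1 had the smallest p (mean -0.62 ± 0.23, limma adjusted p = 0.0932), and Gfap was at -0.18 ± 0.98. Of the neuron markers Th, which makes the dopamine precursor, had the smallest p (mean 0.59 ± 0.12, limma adjusted p = 0.0563). Th was above 0, while 15 of the 19 neuron markers had a mean below 0 (78.9%) and Hdc, Cartpt and Hcrt were below 0 on every array. Among the neuron markers the SD over arrays was largest for Avp (1.17, -0.18, -2.63 and -0.72) and Oxt (1.81, 0.13, -2.53 and -0.27). Of the other lists, 9 of 13 astrocyte, 3 of 11 tanycyte and 3 of 9 choroid plexus markers had a mean below 0. None of the genes in these 4 lists passed the threshold. The medians of the astrocyte markers were 0.06, -0.27, -0.16 and 0.17 by array and those of the neuron markers -0.05, -0.08, -0.44 and 0.01. The part of cell composition in the cilium values was not tested.

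**Figure D4:**
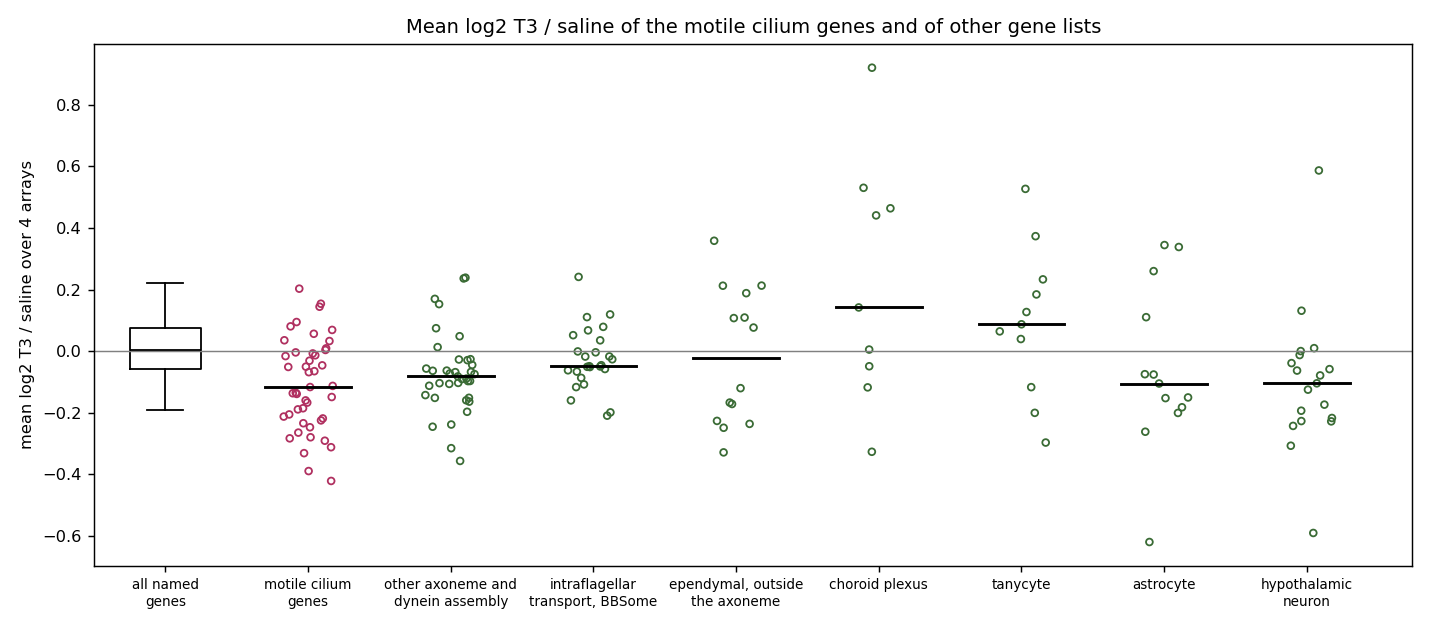
Mean log2 T3/saline over 4 arrays (vertical axis) of each measured gene (open circles) in the motile cilium genes and in 7 other gene lists, with a bar at each median, beside all 9291 named genes (box of the middle quartiles, whiskers from the 5th to the 95th percentile). The medians are -0.12 for the motile cilium genes, -0.08 for other axoneme and dynein assembly genes, -0.05 for intraflagellar transport and -0.02 for ependymal markers outside the axoneme, against 0.0043 for all named genes.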

How the data were processed

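Per the file headers, the deposited scanner files were made with Agilent Feature Extraction 10.7.3.1 and held median spot and background intensity and processed intensity (background-subtracted and dye-normalized), with a log10 ratio of Cy5 over Cy3. The authors' deposited table of 41105 rows was taken as log2 ratios of T3 over saline: each column correlated positively with the scanner ratio of its array, and Hr was above 0 in all 4. The submitters' processing notes name limma 3.18.9 and give the table no log base, centring or normalization. Its column medians were 0.0026, -0.0024, 0.0021 and 0.0030.

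Here, median signals were corrected with normexp (offset 50) and normalized by loess in limma 3.58.1 (R 4.3.3), control spots at weight 0. Control and outlier spots were left out, spots of a probe averaged, and ratios turned to T3 over saline. The background filter kept 23141 of 41012 probes. Accessions were matched without versions to RefSeq (GRCr8): 16964 probes had 1 symbol and 24048 none. No probe sequence was used.

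The test of each probe was limma (lmFit, eBayes, 2-sided, 3 residual and 4.35 prior degrees of freedom). It was run on simulated arrays with independent noise and no dye component. These cannot show how it behaves with the dye component seen here. The number of arrays limits the precision. All arrays lay on 1 slide with 1 scan time. The genes given with all 4 values were Foxj1, the 12 with the smallest p and the one with the highest mean; Drc1, Drc12, Dnai4 and Rsph4a were added after their values were seen. Of each other list the gene with the smallest p was named, with Ttr, Sostdc1, Pltp, Mia, Gfap and Hr. Rfx2, Tmem212, Vim, Hdc, Cartpt, Hcrt, Avp and Oxt were added after their values were seen. Klf9 and Dio3, also of that rule, are given beside Hr. The members and lists were chosen with earlier results of these data known. The X-box spelling was chosen after other spellings had been counted. Alternatives covered background, normalization, the deposited table, a dye term, filters, probe choice, eBayes settings, the threshold and leaving out each array.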

Additional observations from a re-analysis of the deposited data

Results flagged for a closer look

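Of 56 genes and list medians examined, 2 had an array far from the other 3, where chance gives about 1 in 20. For Dnah1 the first array gave -0.55 and the rest gave -0.26 to -0.21, so that the gap took 0.854 of the range. For the tanycyte markers the median was -0.06 on the third array and 0.08 to 0.11 on the rest, a gap of 0.859 of the range.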

How the results depend on the processing

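No motile cilium gene passed the threshold under any of the 14 alternatives, in which the number of probes called over the whole array ran from 0 to 90 (23 as reported). No probe on the array, Hr included, passed without array 1, 3 or 4, where 1401, 1381 and 1578 probes had an unadjusted limma p under 0.05, and 70 passed without array 2. None passed with Agilent processed signals, median centring or the trend and robust setting of eBayes (1597, 131 and 1162 at an unadjusted limma p under 0.05). The count of means below 0 ran from 29 of 35 genes (probes above background on all arrays in both channels) to 37 of 52 (no filter on dim probes), and the median from -0.17 (Agilent processed signals) to -0.07 (no filter). The count below 0 on every array, 19 as reported, was 1 with median centring in place of loess and 5 with the authors' deposited table. It depends on these choices, and the cause was not tested. The share of all named genes below 0 on every array was not counted with median centring. Under the other alternatives the count of cilium genes lay between 14 and 24, but several of these could not lower it. Leaving out an array asks for fewer arrays below 0, so that count could not fall under 19. The dye term, the eBayes settings and the threshold left the ratios unchanged, and with them this count and the signs of the means. With median centring 58.3% of all named genes had a mean below 0, against 77.8% of the cilium genes. Cfap206 was at 0.060 in the authors' deposited table, and the other 13 genes given by the naming rule kept their sign in each alternative that measured them (Tekt3 and Cfap206 were not measured under the filter on all arrays in both channels). Without 1 array, the median lay between -0.12 and -0.10 and the count of means below 0 between 32 and 33. The adjusted p of Drc3 ran from 0.112 with a dye term to 1.00 with median centring. No paired analysis was possible because all arrays form 1 group, in which each ratio already pairs a T3 rat with a saline rat. Differences of the size of these genes' means were below the 0.625 of the smallest one called.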

Other observations

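Of the 7 genes whose promoter held a full X-box, 6 were among the 17 genes with a promoter sequence that were below 0 on all 4 arrays (35.3%), and 1 was among the other 20 (5%). The core GTTGCC was split more evenly, in 9 of 17 (52.9%) and 8 of 20 (40%). This split was looked at after the values were known and was not tested. Which genes were below 0 on all 4 arrays also depended on the processing, as given above. The forkhead motif TGTTTAC was in 2 of the 17 (11.8%) and 1 of the 20 (5%).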
